A study of Mus musculus with 4 samples.

Results

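The genes described here are 10 inhibitors of Wnt signaling that act outside the cell or at its surface: Sfrp1, Sfrp2, Sfrp4, Frzb, Wif1, Dkk2, Dkk3, Kremen1, Apcdd1 and Sost. They were taken by symbol from a table of 24346 gene rows, and each was present as a row of its own. Of the 10, Kremen1 and Apcdd1 encode membrane proteins and the others encode secreted proteins. mBMSCs, mesenchymal stem/progenitor cells grown from the bone marrow of 3-month-old C57BL/6 mice (C57BL/6J in the methods), were transfected with a scrambled siRNA (siScr, 2 samples) or with siRNA against Zbp1 (siZBP1, 2 samples) in the presence of Lipofectamine RNAiMAX, and RNA was collected 72 h later. Zbp1 encodes a sensor of Z-form nucleic acids. Neither group was given an osteogenic medium or Wnt3a as far as the labels and the methods for these libraries say. Nothing says whether the samples of a group came from separate animals or cultures, so p-values measure only the spread between these samples, which may be technical.

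Wnt proteins bind Frizzled receptors together with LRP5 or LRP6, and this stops the destruction of β-catenin, which then enters the nucleus and drives target genes with TCF/LEF factors. Secreted antagonists act before that step. The secreted Frizzled-related proteins (sFRPs) and WIF1 hold Wnt proteins away from their receptors, whereas Dickkopf proteins and sclerostin occupy LRP5 and LRP6. In bone marrow stroma and osteoblasts, Wnt/β-catenin signaling favors bone formation, and several of the antagonists are themselves made by cells of the osteoblast lineage.

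Zbp1 mRNA was measured first as a check of the labels. Its level, in FPKM (fragments mapped to a gene, scaled to its length and to the size of the library), was 86.0 and 62.0 in the siScr samples and 11.5 and 11.6 in the siZBP1 samples. The groups did not overlap, and the siZBP1 mean was 6.40-fold lower. On the scale of log2(FPKM + 1) the limma change was -2.56 (SE 0.16, adjusted p = 0.00322), and leaving out siZBP1 replicate 1 or replicate 2 gave an adjusted p of 0.0748 or 0.0654.

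Values of the 4 libraries summed to between 477974 and 492166 FPKM, with 16003 to 16565 genes above 0. Read numbers were not used here, but the smallest values above 0 put the depth, relative to siZBP1 replicate 1, at 1.36 and 1.86 in siScr cells and at 1.53 in siZBP1 replicate 2. Mesenchymal markers were detected, with all 14 listed genes above 0, and their summed level was 2646 and 2425 FPKM in siScr cells and 2394 and 2403 FPKM in siZBP1 cells. Vim and Itgb1 made up most of this sum, with means of 1385 and 398 FPKM in siScr cells and 1407 and 386 FPKM in siZBP1 cells. The sum thus says little of the other markers, and of the 13 tested 5 fell and 1 rose (limma, adjusted p under 0.05). Markers of macrophages were also abundant, and all 16 listed genes were above 0 in both groups, although the source label names only mesenchymal cells. Their summed level was 11771 and 12764 FPKM in siScr cells and 17101 and 16358 FPKM in siZBP1 cells, 1.36-fold higher, and 11 of the 16 rose (limma, adjusted p under 0.05) while 0 fell (1 at an unadjusted p under 0.05). Without siZBP1 replicate 1 or replicate 2 none of the 16 passed. The 4 endothelial markers summed to about 4 FPKM in each group (means 3.98 and 4.11). The part of the macrophage transcripts in the results below was not tested.

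The mRNA of most antagonists was lower after ZBP1 knockdown. Of the 10 members, 9 were above 0, and the 2 groups did not overlap for any of the 9. Both siZBP1 samples were below both siScr samples for 8 members, against 29.3% of the 17788 genes above 0, and above them for 1 member, Dkk2, against 29% of those genes. A limma fit across the 11959 genes with a mean of at least 1 FPKM included 7 members, of which 6 fell (14.8% of all tested genes were called lower) and 0 rose (13.5% were called higher), at an adjusted p under 0.05. At an unadjusted limma p under 0.05 all 7 were lower, beside 2549 of all 11959 tested genes. Without siZBP1 replicate 1 the median change of the 7 tested members was -0.876, and without siZBP1 replicate 2 it was -0.998. The calls of the members were lost in these fits. With 1 siZBP1 sample left, the spread within a group came from the siScr samples alone, and few of all tested genes were called. A lost call there does not set the members apart. Every call of a member with all samples nevertheless depends on having both siZBP1 samples. The remaining tested member was Apcdd1, and Dkk2, Frzb and Sost were below the filter. The median change of the 7 tested members was -0.94 on the log2(FPKM + 1) scale, beside 0.0045 for all tested genes. All members except Dkk2 and Sost are on a list of Wnt pathway genes that the study drew from these same libraries for having fallen, so the direction of those members is not independent evidence. In bulk RNA, fewer cells that make a transcript and less transcript per cell cannot be told apart.

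**Figure D1:**
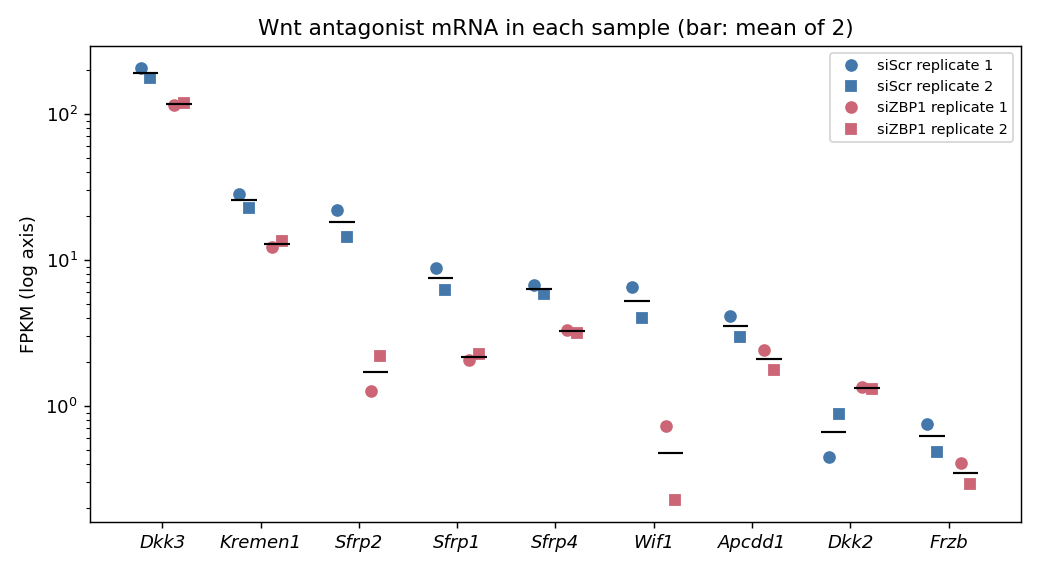
FPKM of the 9 antagonist genes detected (log axis), with a circle for replicate 1, a square for replicate 2, siScr in blue, siZBP1 in red and a bar at the mean of 2 samples. Both siZBP1 values lie below both siScr values for 8 genes and above them for Dkk2, and Sost, at 0 in all samples, is not drawn.

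The sFRP family carries a cysteine-rich domain like that of the Frizzled receptors, with which it binds Wnt proteins. Sfrp2 (chromosome 3, 83766321 to 83774316, plus strand, GENCODE M21 on GRCm38) was the most abundant of the 4 sFRP genes in siScr cells and showed the largest fall among the tested members on the log2(FPKM + 1) scale, though not by the ratio of the means, which was larger for Wif1. Its level was 21.9 and 14.4 FPKM in the siScr samples and 1.26 and 2.18 FPKM in the siZBP1 samples. The lowest control value was thus far above the highest knockdown value, and the mean went from 18.1 ± 5.31 to 1.72 ± 0.654 FPKM (SD, n = 2), 10.5-fold lower. The limma change was -2.81 (SE 0.26, 95% interval -3.49 to -2.12, adjusted p = 0.00543), and Sfrp2 ranked 52 from the lowest among the 11959 tested genes.

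Sfrp1 (chromosome 8, 23411502 to 23449632, plus strand) stood at 8.86 and 6.24 FPKM in siScr cells and at 2.06 and 2.27 FPKM in siZBP1 cells. The knockdown samples were close to each other and well below the controls, with means of 7.55 ± 1.85 and 2.16 ± 0.148 FPKM (SD, n = 2), 3.49-fold lower (limma -1.42, SE 0.17, adjusted p = 0.00910). Sfrp4 (chromosome 13, 19623104 to 19632994, plus strand), best known from inherited loss in a disorder of cortical bone, changed less. Its values were 6.77 and 5.86 FPKM against 3.31 and 3.16 FPKM, a mean of 6.32 ± 0.644 against 3.24 ± 0.102 FPKM (SD, n = 2). This was 1.95-fold lower, with a limma change of -0.79 (SE 0.10, adjusted p = 0.00984). Frzb (chromosome 2, 80411970 to 80447625, minus strand), the sFRP first found in cartilage, was at 0.751 and 0.486 FPKM in siScr cells and at 0.403 and 0.293 FPKM in siZBP1 cells. These values did not overlap but were close, and with a mean of 0.483 FPKM over all samples Frzb was below the filter of the test. Without siZBP1 replicate 1 the limma adjusted p was 0.0819 for Sfrp2, 0.105 for Sfrp1 and 0.103 for Sfrp4. Without siZBP1 replicate 2 these were 0.0689, 0.0911 and 0.0949. The remaining sample was then assumed to vary like the controls.

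The make-up of the sFRP pool differed between groups. Summed over the 4 sFRP members, mRNA was 38.3 and 27.0 FPKM in siScr cells and 7.03 and 7.91 FPKM in siZBP1 cells. The sum was 4.37-fold lower by the means. Sfrp5, an sFRP gene outside the members, was left out of this sum. It was near 0, at 0 and 0.0473 FPKM in siScr cells and 0.0898 and 0.0546 FPKM in siZBP1 cells. Sfrp2 made up 57.2% and 53.3% of this sum in the controls and 17.9% and 27.6% after knockdown. Sfrp4 made up 17.7% and 21.7% in the controls and 47.1% and 40.0% after knockdown, and it was the most abundant sFRP transcript in both siZBP1 samples. The share of Sfrp1 went from 23.2% in both controls to 29.3% and 28.7%. With 2 samples against 2, no two-sided exact permutation p can be below 0.333, so these shares are given as values.

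Wif1 (chromosome 10, 121033960 to 121100650, plus strand) binds Wnt proteins through a domain of its own, unrelated to that of the sFRPs. Its level was 6.47 and 4.0 FPKM in siScr cells and 0.728 and 0.226 FPKM in siZBP1 cells. The mean fell from 5.24 ± 1.74 to 0.477 ± 0.355 FPKM (SD, n = 2), 10.97-fold lower. The siZBP1 values were about 22.2 and 10.6 times the smallest step of their libraries, against 269 and 228 times in the siScr libraries, so that the low level rests on few fragments. The limma change was -2.07 (SE 0.27, 95% interval -2.79 to -1.35, adjusted p = 0.0104). Adding 1 before taking logs understates the change of low genes, and with 0.1 added in place of 1 the change of Wif1 was -3.32. The limma adjusted p was 0.0548 without siScr replicate 1, 0.0882 without siZBP1 replicate 1 and 0.0911 without siZBP1 replicate 2.

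Together the 5 genes of secreted Wnt-binding proteins (the sFRPs and Wif1, without the membrane protein Apcdd1) summed to 44.7 and 31.0 FPKM in siScr cells and to 7.75 and 8.13 FPKM in siZBP1 cells, a 4.76-fold lower mean. Summed over 19 Wnt ligand genes, the level was 27.1 and 22.3 FPKM in siScr cells and 16.7 and 16 FPKM in siZBP1 cells, 1.51-fold lower. The sum of these 5 genes was therefore 1.65 and 1.39 times the ligand sum in the controls and 0.465 and 0.508 times after knockdown. In both siScr samples mRNA for the sFRPs and Wif1 exceeded that for Wnt ligands, and in both siZBP1 samples it did not. All 5 genes are on the study's list of genes that fell in these libraries, whereas the ligand sum took in 19 genes. The fall of this ratio is therefore not independent evidence. Wnt5a made up much of the ligand sum, with means of 11.3 FPKM in siScr cells and 8.79 FPKM in siZBP1 cells. The sums are of transcript levels per length, and protein was not measured in these files.

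**Figure D2:**
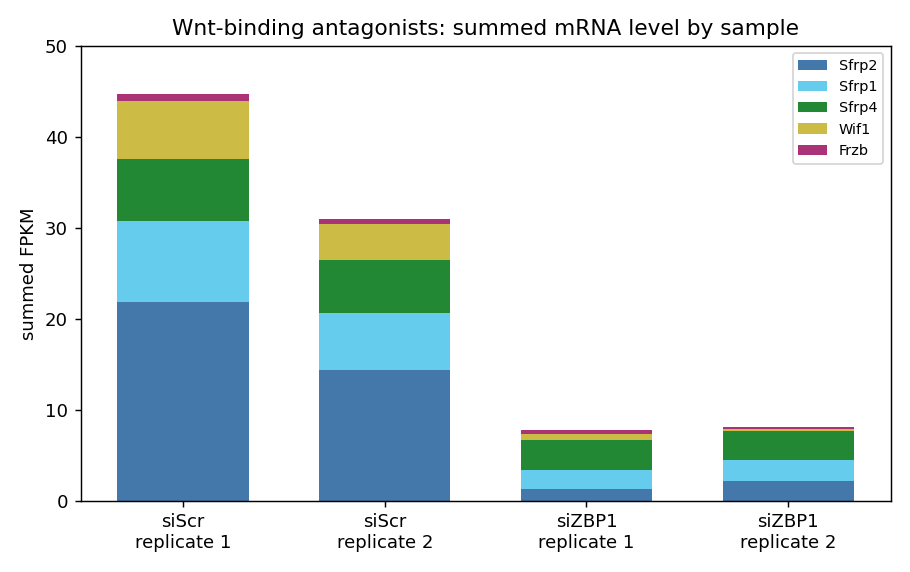
Stacked FPKM of the 4 sFRP members and Wif1, whose secreted products bind Wnt proteins, by sample. The bars reach 44.7 and 31.0 FPKM in the siScr samples and 7.75 and 8.13 FPKM in the siZBP1 samples, where Sfrp4 takes the place of Sfrp2 as the largest sFRP portion.

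Promoter windows placed by RefSeq starts (GRCm38.p6) were at hand here for 5 of the 10 members, Sfrp2, Wif1, Dkk2, Frzb and Sost. Promoters of the other members were not searched. The windows of the 2 members with the largest ratios and of Dkk2, the member that went the other way, are shown so that they can be compared, each read 5′ to 3′ and ending just before its annotated start of transcription. For Wif1 this is the GENCODE start at 121033960, which lies before the RefSeq start at 121034004. Capitals mark the letters TATAAA.
Sfrp2, chr3:83766071-83766320, plus strand: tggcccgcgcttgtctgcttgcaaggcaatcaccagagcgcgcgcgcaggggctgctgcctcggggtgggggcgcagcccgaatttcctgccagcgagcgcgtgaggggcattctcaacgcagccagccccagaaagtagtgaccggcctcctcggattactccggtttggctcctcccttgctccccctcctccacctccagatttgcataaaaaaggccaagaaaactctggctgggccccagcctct
Wif1, chr10:121033754-121033959, plus strand: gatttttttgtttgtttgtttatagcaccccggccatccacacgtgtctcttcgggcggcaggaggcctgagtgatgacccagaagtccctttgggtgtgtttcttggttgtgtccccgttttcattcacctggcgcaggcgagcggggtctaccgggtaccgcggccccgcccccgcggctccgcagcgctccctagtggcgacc
Dkk2, chr3:132085042-132085291, plus strand: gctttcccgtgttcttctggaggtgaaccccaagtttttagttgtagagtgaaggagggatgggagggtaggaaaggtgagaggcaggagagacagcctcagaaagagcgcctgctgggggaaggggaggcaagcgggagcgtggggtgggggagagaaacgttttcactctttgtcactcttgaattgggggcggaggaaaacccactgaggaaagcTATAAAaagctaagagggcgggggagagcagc
Motifs were searched from 250 bases before to 50 bases after the RefSeq start. For Frzb, on the minus strand, the GENCODE start at 80447625 lies before the RefSeq start at 80447396. Only 21 bases of the Frzb window precede the GENCODE start, so the sequence before that start was hardly searched. The Wnt/β-catenin response element was searched on either strand as CTTTGAA, with the variant ends of CTTTGAT, of the form CTTTGTA and of the form CTTTGTT included. It was in none of the 5 windows, beside 16.9% of 32851 mouse promoter windows. RUNX sites (TGTGGT, or the variant TGCGGT, on either strand) were likewise in none, beside 22.4% of all windows. TATAAA on the forward strand was found in 1 of the 5, Dkk2, from 32 to 27 bases before the start, and in 8.32% of all windows. A missing match says only that these letters are not in this window. The G and C content was 66% for Sfrp2, 63% for Wif1 and 57.7% for Dkk2, beside a median of 52.7% over all windows.

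Among the inhibitors that act on the co-receptors, Dkk2 was the one member that stood higher after knockdown. Dickkopf-2 binds LRP6 and blocks or aids signaling depending on Kremen. Dkk2 (chromosome 3, 132085292 to 132180304, plus strand) was at 0.448 and 0.874 FPKM in siScr cells and at 1.35 and 1.31 FPKM in siZBP1 cells. The siZBP1 samples were nearly equal and above both controls, whose values differed from each other, and the mean was 2.01-fold higher. Its mean over all samples, 0.994 FPKM, was just under the filter of 1. With the filter lowered to 0.1, the change was 0.50 on the log2(FPKM + 1) scale with a limma adjusted p = 0.0808, so that it was not called. In that fit 12.1% of genes were called lower and 10.4% higher, and Frzb, at -0.26, was not called either (limma adjusted p = 0.196).

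Sost encodes sclerostin, the LRP-binding inhibitor made by osteocytes, and lies on chromosome 11 (101962458 to 101967015, minus strand). It was listed at 0 in all 4 samples, and so were Mepe and Fgf23, which osteocytes also express. Dmp1, another osteocyte gene, was detected at low levels of 0.0639 and 0.835 FPKM in siScr cells and 0.0221 and 0.329 FPKM in siZBP1 cells. No statement on a change of Sost can be made.

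Kremen1 is a transmembrane receptor that, once bound by Dickkopf proteins, takes LRP6 off the cell surface. Kremen1 (chromosome 11, 5191552 to 5261558, minus strand) was at 28.4 and 22.7 FPKM in siScr cells and at 12.2 and 13.4 FPKM in siZBP1 cells. The mean went from 25.5 ± 4.04 to 12.8 ± 0.826 FPKM (SD, n = 2), 1.997-fold lower, and the groups were well apart. The limma change was -0.94 (SE 0.12, adjusted p = 0.0101), with an adjusted p of 0.111 and 0.0911 without siZBP1 replicate 1 and replicate 2.

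Dkk3 encodes a divergent Dickkopf protein that does not share the LRP6 binding of its relatives. Dkk3 (chromosome 7, 112116017 to 112159057, minus strand) had by far the highest level per length of the 10 genes. It was at 207.6 and 176.0 FPKM in siScr cells and at 115.9 and 118.8 FPKM in siZBP1 cells. Both knockdown samples were below both controls, with means of 191.8 ± 22.4 and 117.4 ± 2.07 FPKM (SD, n = 2), 1.63-fold lower. The limma change of -0.70 (SE 0.09, adjusted p = 0.00952) was the smallest of the 6 that passed the test, and the adjusted p was 0.110 and 0.0949 without siZBP1 replicate 1 and replicate 2. Dkk3 made up 72.8% and 75.4% of the summed FPKM of all members in siScr cells and 83.0% and 82.9% in siZBP1 cells. The sum over all members was accordingly only 1.83-fold lower after knockdown, and 2.80-fold lower without Dkk3.

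Apcdd1 encodes a membrane glycoprotein that binds Wnt proteins and LRP5, and lies on chromosome 18 (62922231 to 62961179, plus strand). It was at 4.11 and 2.95 FPKM in siScr cells and at 2.40 and 1.76 FPKM in siZBP1 cells. The groups did not overlap, but the spread within each was large beside the gap between them, and the mean was 1.70-fold lower. The limma change was -0.55 (SE 0.18, 95% interval -1.04 to -0.07, adjusted p = 0.0893) and did not pass the threshold. With the replicate number as a block the adjusted p was 0.0343, and over the other settings with all samples it ranged from 0.0540 to 0.134.

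**Figure D3:**
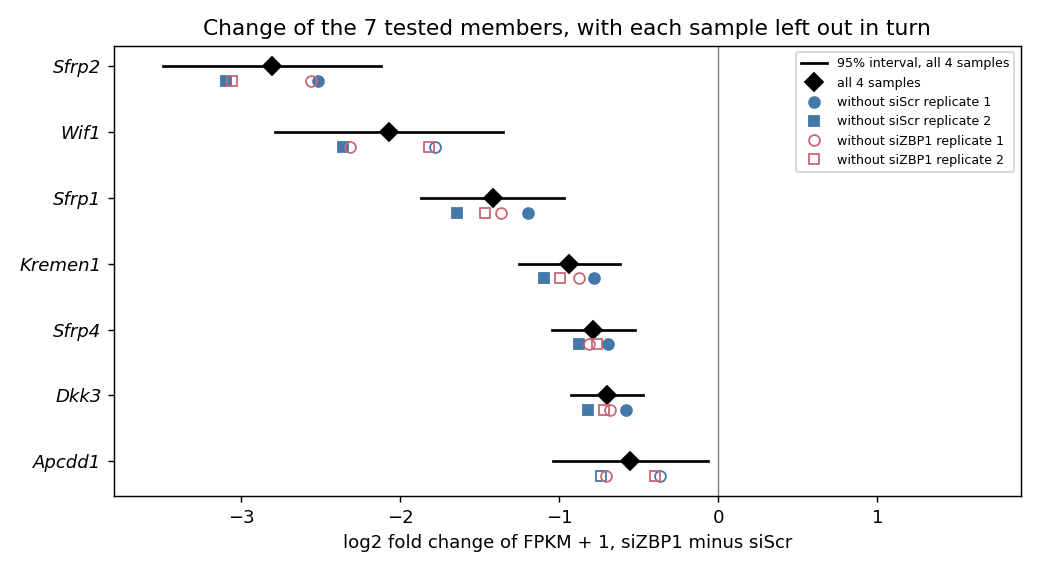
Limma change on the log2(FPKM + 1) scale for the 7 tested antagonist genes, with a diamond and a 95% interval for all 4 samples and smaller symbols for fits with 1 sample left out (open where the adjusted p was not under 0.05, diamonds always filled). Every symbol lies below 0, and all fits that leave out a siZBP1 sample are drawn open.

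The order of the levels within a group also shifted. In siScr cells the order by FPKM was Dkk3, Kremen1, Sfrp2, Sfrp1, Sfrp4, Wif1, Apcdd1, Dkk2, Frzb and Sost. The ranges of the 2 samples overlapped for Sfrp1 with Sfrp4, for both of these with Wif1, for Wif1 with Apcdd1 and for Dkk2 with Frzb, so those neighbours cannot be ordered beyond their spread. In siZBP1 cells Sfrp2 moved from place 3 to place 6 and Wif1 from place 6 to place 8, below Dkk2. Apcdd1, Sfrp1 and Sfrp2 overlapped there, and so did Sfrp2 with Dkk2 and Wif1 with Frzb. Dkk3 and Kremen1 kept the 2 top places in both groups.

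The siScr samples differed from each other in a like way for many of these genes. Replicate 1 was above replicate 2 for all 8 members with a lower siZBP1 mean, and for 73.3% of the 1766 tested genes called lower, beside 55.0% of all tested genes. In siZBP1 cells replicate 1 was the higher one for 4 of the 8. The tested genes outside the list with profiles most like the median centred profile of the 7 tested members, by Euclidean distance over the 4 samples on the log2(FPKM + 1) scale, were Igsf10 (distance 0.0174), Podnl1 (0.0443), Ddr1 (0.0464), Cdc42ep1 (0.0484) and Flnc (0.0529). Igsf10, for instance, was at 31.7 and 25.7 FPKM in siScr cells and at 13.8 and 14.9 FPKM in siZBP1 cells.

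Other extracellular and surface inhibitors of the pathway were mostly near 0 in these cells. Of 16 such genes, 15 were above 0 and 4 were tested, and 0 of the 4 was called by limma (0 also at an unadjusted p under 0.05), with a median change of -0.05. With the filter lowered to 0.1, 1 of 9 was called lower (Trabd2b), and with no filter 2 of 15 were (Trabd2b and Notum), beside 8.97% of all 17788 genes above 0. Igfbp4, a binding protein of insulin-like growth factors that also inhibits Wnt signaling, was the most abundant of them at 91.2 and 88.1 FPKM in siScr cells and 87.7 and 78.8 FPKM in siZBP1 cells. The groups were nearly touching, and the limma change was -0.11 (adjusted p = 0.273). Tpbg, at a change of -0.04, and the ubiquitin ligases Znrf3 (0.02) and Rnf43 (-0.07), which remove Frizzled receptors, were not called either. Dkk1 was low, at 0.245 and 0.142 FPKM in siScr cells and 0.134 and 0.165 FPKM in siZBP1 cells, with overlapping groups. Trabd2b, which encodes a Wnt-cleaving protease, was below the filter of 1 at 0.733 and 0.666 FPKM against 0.176 and 0.154 FPKM (limma -0.54, adjusted p = 0.0177 with the filter of 0.1). Notum, which encodes an enzyme that inactivates Wnt proteins, was at 0.243 and 0.202 FPKM against 0 and 0.0516 FPKM (limma -0.25, adjusted p = 0.0384 with no filter). Draxin, at 0.211 and 0.229 FPKM against 0.0886 and 0.0455 FPKM, did not overlap between groups either. Dkk1, Trabd2b, Notum and Draxin were picked for naming after their values were seen. Of these, Trabd2b, Notum and Draxin are also on the study's list of genes that fell. All 7 tested members are on the study's list of genes that fell in these libraries. A contrast between their median and the -0.05 of these other inhibitors is therefore not independent evidence. Inhibitors inside the cell were tested for 15 of 18 genes, of which 1 fell (Apc, -0.31, limma adjusted p = 0.0404) and 1 rose. The latter was Dact1, an antagonist of Dishevelled, at 3.62 and 3.88 FPKM in siScr cells and 8.71 and 8.99 FPKM in siZBP1 cells (limma 1.05, adjusted p = 0.00384). Without siScr replicate 1 Apc was not called, and without siZBP1 replicate 1 or replicate 2 neither gene was.

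The other layers of the pathway were read from the same fit. Of 5 tested Wnt ligands, 4 fell and 1 rose. Wnt10b, which promotes bone formation, went from 7.61 and 5.06 FPKM to 1.47 and 1.43 FPKM (limma -1.56, adjusted p = 0.00917), and Wnt4, Wnt16 and Wnt5a changed by -1.01, -0.67 and -0.32. Wnt9a rose from 1.12 and 1.02 FPKM to 3.39 and 2.92 FPKM (limma 1.00, adjusted p = 0.00909). Without siScr replicate 1 the count of ligands that fell was 1. Without siZBP1 replicate 1, and likewise without siZBP1 replicate 2, 0 ligands fell and 0 rose.

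Of 13 tested receptors and co-receptors, 6 fell and 1 rose, with a median change of -0.38. Lrp4, which encodes a low density lipoprotein receptor-related protein that anchors sclerostin, changed by -1.44, and Ryk, a receptor for Wnt proteins outside the Frizzled family, by -1.10. Fzd5 and Fzd8 changed by -0.77 and -0.72, and Fzd6 rose by 0.80. Among R-spondins and their receptors, which raise the response to Wnt, 1 of 3 tested genes fell. This was Rspo2, at 45.4 and 35.5 FPKM in siScr cells and 12.9 and 13.1 FPKM in siZBP1 cells (limma -1.56, adjusted p = 0.00434). Of 10 tested β-catenin target genes, some of which are also on other lists here, 6 fell and 0 rose by limma (7 and 0 at an unadjusted p under 0.05), with a median of -0.75. Tcf7, Ccnd1 and Myc changed by -1.26, -1.07 and -1.06, Wisp1 by -0.89 and Tnfrsf19 by -0.88. Without siScr replicate 1 the counts of genes that fell were 4 receptors and 3 targets. Without siZBP1 replicate 1 both were 0, and without siZBP1 replicate 2 they were 0 and 1. Neither of these fits called Rspo2 or Fzd6. Wnt antagonists, ligands, receptors and targets thus all held genes with lower mRNA after knockdown. Whether any layer changed more than another was not tested. Wnt10b, Wnt4, Wnt16, Lrp4, Ryk, Fzd5, Fzd8, Rspo2, Tcf7, Ccnd1, Myc and Wisp1 are on the study's list of genes that fell in these libraries. Their direction is therefore not independent evidence either.

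**Figure D4:**
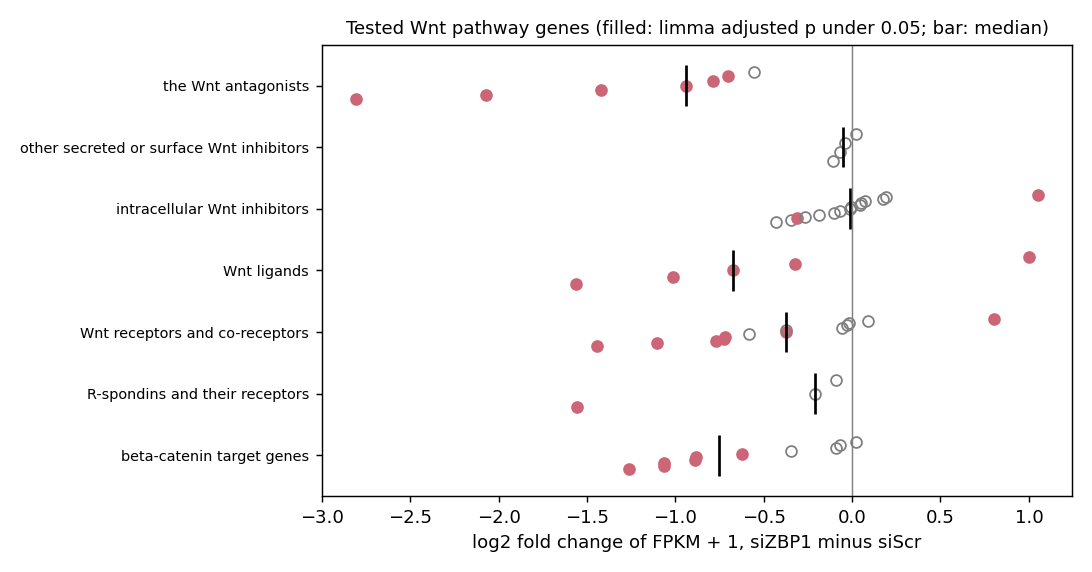
Limma change of every tested gene in 7 lists of the Wnt pathway on the log2(FPKM + 1) scale, with filled points for an adjusted p under 0.05 and a bar at the list's median. The bar of the antagonists is at -0.94 and those of the other inhibitors of both kinds are at -0.05 and -0.01, and the order of the lists changes with the settings (with 0.1 added in place of 1 the bar of the ligands is at -1.20 and that of the antagonists at -0.98). All 7 tested antagonists are on the study's list of genes that fell in these libraries. The distance of their bar from the others is therefore not independent evidence.

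Most tested genes of the osteoblast lineage were lower in the same samples. Of 11 tested osteoblast and osteocyte genes, 8 fell and 1 rose, with a median change of -0.92. The gene that rose was Spp1, named beyond the 5 with the largest change. It was at 1516 and 2625 FPKM in siScr cells and 4651 and 4447 FPKM in siZBP1 cells (limma 1.19). With Spp1 included, the summed level of the 15 listed genes was 1.05-fold higher after knockdown. Alpl, the alkaline phosphatase of mineralizing cells, changed by -2.96, the transcription factor Sp7 by -2.68 and Ibsp, a mineral-binding matrix protein, by -2.21, and Dlx5 and Col1a1 by -1.39 and -1.26. Of 13 tested mesenchymal markers, 5 fell and 1 rose. Cxcl12, the niche chemokine of marrow stroma, changed by -2.81, Prrx1 by -1.002, Pdgfrb by -0.44 and Cd44 by -0.35, whereas Nt5e rose by 2.16. Of 5 tested adipocyte markers, Cd36 and Pparg changed by -0.77 and -0.57 and Lpl by 0.25. Macrophage markers moved the other way, with a median of 0.39, led by Mrc1 (1.25), Lyz2 (0.81), C1qa (0.74), C1qc (0.53) and Tyrobp (0.49). Counts in these lists were 0 without siZBP1 replicate 1 and without siZBP1 replicate 2, and Lpl was called in none of the fits that left out a sample. Without siScr replicate 1, 2 mesenchymal markers rose and 1 adipocyte marker fell. The part of these cell markers in the lower level of the antagonists was not tested.

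The siRNAs of the study against mouse Zbp1 have different seeds, and the methods do not say which was used for these libraries. A seed is bases 2 to 8 of the antisense strand, and the 7 letters that pair with it were searched in the longest 3′ UTR that GENCODE M21 (GRCm38) gives each gene. The letters for siZBP1-1, CAGCCAA, were in 12.1% of 10868 tested genes and in 1 of the 10 members, Kremen1. Those for siZBP1-2, TCCGGGA, were in 2.47% of these genes and in 1 member, Sfrp2. The sites are shown in capitals with the bases around them, since they are the only matches among the members.
Kremen1, chr11:5192511-5192517, minus strand: ttcagactcctCAGCCAAaagctcttgaag
Sfrp2, chr3:83773514-83773520, plus strand: cccaagcacagTCCGGGAaagctacagccc
The other 4 members that fell, Sfrp1, Sfrp4, Wif1 and Dkk3, had neither set of letters in that 3′ UTR. A match is a description of the letters and not a measured effect on the transcript.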

How the data were processed

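RNA-seq was analysed for 4 samples of mBMSCs (2 siScr and 2 siZBP1), grouped by the titles in the labels. The deposited values are FPKM per gene and sample. According to the methods, TruSeq libraries were mapped with Tophat and the authors took FPKM with HTSeq, whereas the processing notes name TopHat, Cufflinks and mm10, so how fragments were counted between overlapping or similar genes is not settled. The annotation used is not given in the sources used here. Mean columns deposited beside the samples equal the means of the replicates. FPKM is relative to the library, so a gain of other transcripts lowers every other value. Depth could be estimated only in relative terms, from the first percentile of FPKM times length in genes with a single transcript.

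With limma (3.58.1, in R 4.3.3), a linear model with trended prior variance was fitted across genes averaging 1 FPKM or more, on log2(FPKM + 1), with Benjamini-Hochberg adjustment over all 11959 genes, two-sided, and tested on simulated data. Rows with a repeated symbol (4) were kept apart. Python 3.11.15, pandas 2.3.3, numpy 2.4.6 and matplotlib 3.10.9 were used. Alternatives were the pseudocount, the filter, the scaling between samples, the variance model, a replicate block and leaving out each sample. Named were all members, Zbp1, up to 5 called genes per list with the largest change, and the 5 nearest profiles, with exceptions stated. The members and lists were chosen with earlier results of these data known.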

Additional observations from a re-analysis of the deposited data

How the results depend on the processing

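With a filter of 5 FPKM, 3 members were called lower, because only Sfrp2, Dkk3 and Kremen1 had a mean that high. Under the other pseudocounts, filters, scalings and variance models the count stayed at 6, no member was called higher, and all 80 changes computed for single members and Zbp1 kept their direction and side of the threshold. The median of all tested genes stayed within 0.0433 of 0 under every scaling. With 1 sample left out, 0 to 6 members were called lower, the 0 without siZBP1 replicate 1 and without siZBP1 replicate 2. Over all tested genes, these fits called 23 to 1297 genes lower and 22 to 1019 higher, beside 1766 and 1618 with all samples. No direction of a member changed in them. Every called member and Zbp1 lost its call without siZBP1 replicate 1 and without siZBP1 replicate 2. Wif1 lost its call also without siScr replicate 1, and Apcdd1 had no call to lose. The difference between replicates 1 and 2 in siScr cells was hardly correlated with that in siZBP1 cells (r = -0.063 across genes). This cannot show whether samples with the same number shared an animal or culture. With a replicate block 7 members were called lower, the added one being Apcdd1, and 1654 genes were called lower and 1465 higher in all. The 2 samples in each group limit every call, and Wif1 and Frzb after knockdown rest on few fragments (10.6 to 22.2 times the smallest step of their libraries). Dkk2, also below 1 FPKM on average, was at 30.1 to 99.0 times that step.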
